A study of Mus musculus with 26 samples.

Results

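Line WA and line WB are immortalized lines of mouse embryonic fibroblasts (MEFs), mesenchymal cells grown out of mouse embryos and adapted to permanent culture. Both carried pBabe-puro, a retroviral vector with a puromycin resistance gene, with no insert, and 3 arrays of each line were compared, 6 of the 26 arrays of the study. The genes described are the 12525 autosomal genes among the 13018 genes tested. Genes of the sex chromosomes and 72 genes without a chromosome were fitted but are not described. The study also held the line WC and the same 3 lines carrying human c-myc or v-src, the kinase oncogene of Rous sarcoma virus, with 3 arrays per group except WB with v-src, which had 2 here (replicate 1 of that group was not analysed here). Strain, embryo age, the embryonic region taken and the way the lines became immortal are not given in the labels. Each line stands as 1 line, and nothing in the labels says that its arrays came from separate cultures. The p-values thus reflect how far arrays of a group differ, pooled over the 9 groups of the 26 arrays, a spread that may be technical.

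Fibroblasts keep a memory of where in the embryo they arose. Hox genes, which code for homeobox transcription factors arranged in clusters and switched on in the order of their position along the body axis, are the best known part of that memory, and T-box, LIM, Pax and Gata factors add limb, head and visceral identity. Fibroblasts also differ in the matrix they lay down, collagens, proteoglycans, elastic fibres and the proteases that turn these over, and in the growth factors and antagonists they secrete.

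Signals are linear probe set intensities, scaled by the authors to the same trimmed mean of 500 on every array. A difference is WA minus WB on the scale log2(signal + 23), so a negative value is higher in WB, and it understates the change of genes with low signal. A gene is called where its adjusted p was below 0.05. Arrays of WA correlated across genes at r between 0.968 and 0.981, arrays of WB between 0.982 and 0.983, and WA with WB between 0.928 and 0.945. These r values run over genes, which do not vary independently of each other. WA replicate 3 stood apart, with a median signal of 89.0 against 113 and 113 in the other WA arrays and 100.2 to 119 in WB. Calls that were lost when it or another array was left out are named beside the result. Differences of low signals depend on the value added before the logarithm: with one 4 times as high those of Mab21l1, Pax3, Rps4l, Stmn2, Foxd1, Chrna1, Gap43, Msx2, Hoxb9, Dlx5, Cebpa, Mkx, Fabp4, Igtp, Ifi204 and Eng were over 1.5 times smaller, and of these Eng lost its call. Where other probe sets of a gene are mentioned, they are those that passed the filter on mean signal, unless stated.

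The cells of both lines read as fibroblasts by abundant genes, though not by every fibroblast marker. Vim, the mesenchymal intermediate filament, had mean signals of 25159 in WA and 21704 in WB, and Col1a1, a chain of collagen I, 21878 and 18436. Neither was called, with differences of 0.20 (adjusted p = 0.182) and 0.22 (adjusted p = 0.232). Low fibroblast markers, chosen after their values were seen, were Pi16 (28.8 and 44.4) and Dpp4 (50.9 and 32.3). In WA alone Cd34, Lum and Dpt averaged 102, 114 and 182, and most other members of that list were higher. Single defining genes of other cell types were low: Pecam1 of endothelium averaged 19.4 and 17.01, Ptprc of blood cells 42.8 and 41.6, Cdh1 of epithelium 25.9 and 46.4, and Pou5f1 of pluripotent cells 17.97 and 8.13. Other members of these lists had middling signals, among them, chosen after their values were seen, Flt1 and Egfl7 of endothelium (471 and 597, 352 and 397), Csf1r of macrophages (426 and 486) and Grhl2 of epithelium (277 and 338). Epcam, an epithelial adhesion gene, was higher still at 539, 1842 and 654 in WA and 728, 2506 and 1639 in WB, with a difference of -0.72 (adjusted p = 0.531) that was not called. Of the 9 blood and macrophage markers tested, 0 were called by limma, against 26.2% of all autosomal genes. The summed signal of the 9 spanned 993 to 1862 in WA and 1607 to 1935 in WB. For bulk arrays, fewer cells of a kind and less RNA per cell cannot be told apart.

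The lines differed at many autosomal genes, with about as many higher in either line. By limma, 3282 of the 12525 autosomal genes were called, 26.2%, with 1612 (12.9%) higher in WA and 1670 (13.3%) higher in WB. At least 2-fold apart were 669 genes (5.34%), 278 (2.22%) higher in WA and 391 (3.12%) higher in WB. The median over all autosomal genes was -0.02. The signals of the lines did not overlap for 5126 genes (40.9%). The counts of list members called, given below, are to be read beside these shares of all autosomal genes.

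The genes furthest apart had far lower signals in 1 line than in the other, though the lower signals were not always low, as for Dlk1. Hoxc8, a trunk Hox gene, gave signals of 7.43, 33.9 and 24.3 in WA and 5865, 6472 and 5822 in WB, a difference of -7.13 (SE 0.26, adjusted p = 6.74e-16). Dlk1, an imprinted gene for a membrane and secreted protein that holds back adipocyte differentiation, read 483, 922 and 139 in WA and 15153, 16502 and 16753 in WB. Its difference was -5.24 (SE 0.35, adjusted p = 8.78e-11). The genes furthest apart were chosen among called genes whose signals did not overlap between the lines. In the other direction Cyba, the p22phox subunit of NADPH oxidases, read 1325, 1464 and 2068 in WA and 7.46, 5.52 and 5.91 in WB, a difference of 5.78 (SE 0.13, adjusted p = 3.37e-20). Slc38a4, an imprinted amino acid transporter, read 2172, 1828 and 2233 in WA and 27.01, 31.9 and 21.95 in WB, with 5.39 (SE 0.17, adjusted p = 4.02e-17), and its other probe set gave 4.04. The WB signals of both genes were low on all 3 arrays.

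**Figure D1:**
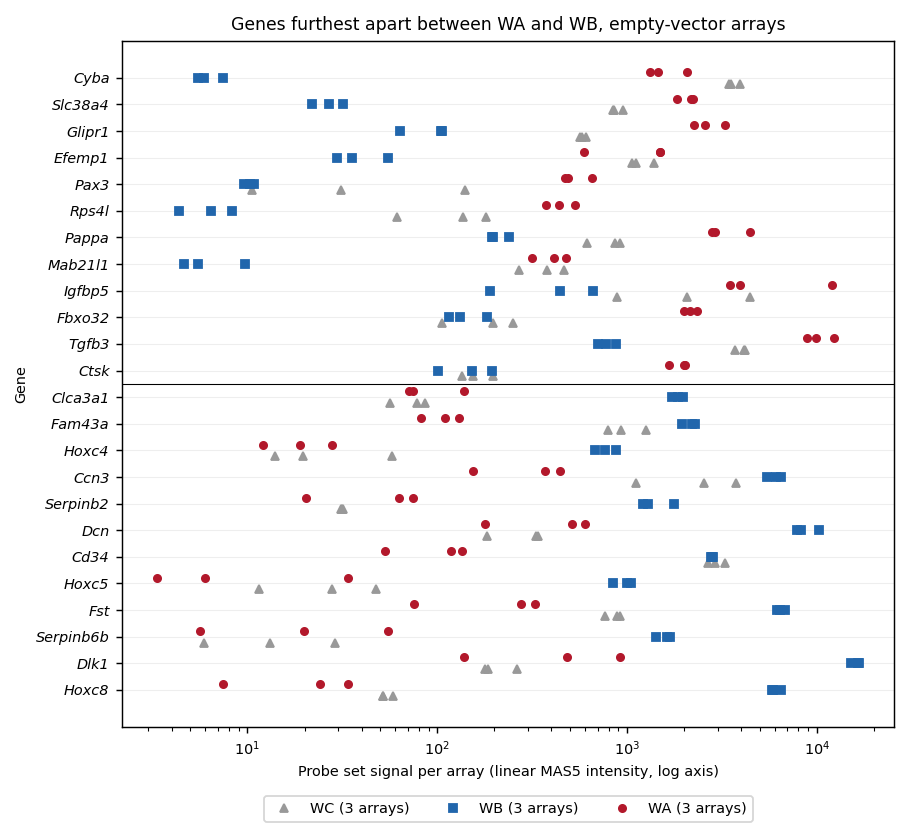
Signals of the 12 genes furthest toward WA (upper block) and the 12 furthest toward WB (lower block) on each empty-vector array, on a log axis. Each point is 1 array, and WA and WB do not overlap for any of the 24 genes, which the choice of genes required. WC, drawn in grey, sits with WA for some genes and with WB for others.

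Several of the other leaders of WA code for secreted proteins. Efemp1, the fibulin-like matrix protein fibulin-3, read 1490.0, 1490.2 and 594 in WA and 35.6, 55.3 and 29.8 in WB (4.17 (SE 0.27, adjusted p = 3.06e-11)). Pappa, a metalloprotease that frees insulin-like growth factors (IGF) from their binding proteins, read 2922, 2813 and 4422 and 194, 198 and 238 (3.84 (SE 0.25, adjusted p = 3.06e-11)). Tgfb3, a TGF-beta ligand, read 9919.6, 8874 and 12306 and 776, 702 and 873 (3.68 (SE 0.20, adjusted p = 1.88e-12)), and Ctsk, the collagen-degrading cathepsin K, 1669, 1993 and 2019.9 and 195, 100.5 and 153 (3.51 (SE 0.19, adjusted p = 2.33e-12)). These are all products that act outside the cell or, for cathepsin K, on the matrix. Igfbp5, an IGF-binding protein, was at 3931, 3470.3 and 11980.1 in WA against 189.9, 663 and 444 in WB, with 3.75 (SE 0.45, adjusted p = 9.73e-07). WA replicates of Igfbp5 spread widely, and its second probe set gave 7.63. Glipr1, a secreted CAP-domain protein, differed by 4.58 (adjusted p = 3.58e-11) on the probe set kept and by 0.65 on the other, so its size rests on which is read.

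The remaining WA leaders were a pair of developmental regulators, a ubiquitin ligase and a ribosomal protein gene. Pax3, a paired-box factor of neural crest, dorsal neural tube and muscle precursors, read 474, 651 and 488 in WA and 10.8, 9.55 and 10.3 in WB, a difference of 4.06 (SE 0.59, adjusted p = 1.21e-05). Mab21l1, needed for eye and skull development, read 411, 477 and 316 against 4.63, 9.75 and 5.45 (3.83 (SE 0.30, adjusted p = 9.02e-10)). Fbxo32, the atrogin-1 ligase of muscle wasting, read 2335, 2149 and 2004 against 115, 183 and 131 (3.74 (SE 0.23, adjusted p = 1.98e-11)). Rps4l, a paralog of a ribosomal protein gene, read 535, 372 and 438 against 6.42, 8.30 and 4.37 (3.99 (SE 0.35, adjusted p = 6.74e-09)), and its probes may also read near copies. That the lines did not overlap for these 4 genes was required by the choice of genes.

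The 12 genes furthest toward WB held Hoxc8, Dlk1, Hoxc5 and Hoxc4, and the other 8 follow. Fst, follistatin, the secreted trap of activin and some bone morphogenetic proteins (BMP), read 276, 328 and 75.7 in WA and 6144, 6417 and 6838 in WB (-4.89 (SE 0.27, adjusted p = 2.15e-12)). Cd34, a sialomucin of fibroblast progenitors and blood stem cells, read 135, 119 and 53.1 and 2842, 2796 and 2778 (-4.56 (SE 0.18, adjusted p = 3.96e-15)). Dcn, decorin, a collagen-binding leucine-rich proteoglycan, read 512, 598 and 179 and 8231, 7866 and 10256 (-4.43 (SE 0.37, adjusted p = 2.98e-09)). WA replicate 3 was the lowest for all 3 genes. Ccn3, a matricellular CCN protein, read 446, 368 and 155 in WA and 6088, 5476 and 6503 in WB (-4.24 (SE 0.40, adjusted p = 2.36e-08)). Serpinb6b and Serpinb2, intracellular serpins, differed by -5.13 (adjusted p = 1.23e-10) and -4.33 (adjusted p = 4.89e-13). Fam43a differed by -4.07 (adjusted p = 3.06e-11), and Clca3a1, of a family of chloride channel regulators, by -4.05 (adjusted p = 4.90e-13).

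Promoter sequences are shown for leading genes of either line and for the Hoxc cluster, because the signals of these genes lay far apart between the lines. RefSeq windows of GRCm38.p6, from 250 bases before to 50 after the gene start, were held for 12 of the 24 leading genes and for 12 of the 20 Hox genes tested. The windows are chr15:103034145-103034444, plus strand for Hoxc4, chr12:109452573-109452872, plus strand for Dlk1 and chr8:122432891-122433190, minus strand for Cyba. They run 5′ to 3′ in lower case, with each CG dinucleotide, the site of DNA methylation, in capitals.
Hoxc4: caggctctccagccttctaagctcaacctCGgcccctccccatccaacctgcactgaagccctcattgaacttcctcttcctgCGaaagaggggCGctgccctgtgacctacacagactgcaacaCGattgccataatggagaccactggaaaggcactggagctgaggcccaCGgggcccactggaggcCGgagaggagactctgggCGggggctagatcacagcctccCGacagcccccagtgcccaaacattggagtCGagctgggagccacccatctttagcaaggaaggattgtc
Dlk1: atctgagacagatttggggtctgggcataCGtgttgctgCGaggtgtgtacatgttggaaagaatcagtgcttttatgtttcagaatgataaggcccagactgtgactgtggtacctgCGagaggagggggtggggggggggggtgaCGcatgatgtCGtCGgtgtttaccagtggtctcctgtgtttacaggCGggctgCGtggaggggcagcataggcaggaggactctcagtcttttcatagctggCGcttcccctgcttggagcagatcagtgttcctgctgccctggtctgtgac
Cyba: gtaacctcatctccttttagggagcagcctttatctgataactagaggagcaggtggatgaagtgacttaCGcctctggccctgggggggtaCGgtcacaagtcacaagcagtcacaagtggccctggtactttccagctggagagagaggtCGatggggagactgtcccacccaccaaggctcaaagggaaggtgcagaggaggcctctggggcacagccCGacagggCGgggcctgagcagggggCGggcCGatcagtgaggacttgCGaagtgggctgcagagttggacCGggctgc
Each of the 3 windows held 9 CG dinucleotides, against a median of 7 over 31396 autosomal windows, and 46.2% of all windows held at least as many. Over all windows, 94.8% held a CG. TATAAA, searched on both strands, was in none of the 3 and in 13.6% of all windows. These counts describe the letters of the reference and were not measured in the lines.

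The Hox genes set the lines apart in 1 direction. Of 33 Hox genes with a probe set of their own, 20 were tested, and 9 were called, all 9 higher in WB and 0 in WA, against 13.3% and 12.9% of all autosomal genes. The 13 that were not tested had group means of at most 60.9 in WA and 142.9 in WB. All 4 Hoxc genes tested were called, 4 of 6 Hoxb genes, 1 of 6 Hoxa genes and 0 of 4 Hoxd genes, and the medians of the 4 clusters were -4.52, -1.49, -0.05 and 0.10. A stricter filter on mean signal left 2 Hoxc and 1 Hoxb gene tested and called. The filter took the mean over all 26 arrays, so a gene low in WA and WC could pass it through WB. Hoxc4, Hoxc5 and Hoxc8 averaged 19.6, 14.4 and 21.9 in WA and 30.5, 29.1 and 54.0 in WC. Hoxc9, Hoxc10 and Hoxc13, low in WA and WB, were not tested. Hoxb6 and Hoxb9 averaged 45.6 and 60.4 in WA, 27.5 and 54.7 in WC and 319 and 172 in WB. The shares of Hoxc and Hoxb genes called, and the 9 called in 1 direction, were thus partly set by the filter.

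Hoxc4, Hoxc5, Hoxc6 and Hoxc8 are neighbours on chromosome 15. Hoxc4 read 18.9, 12.002 and 27.8 in WA and 875, 768 and 682 in WB (-4.24 (SE 0.32, adjusted p = 6.03e-10)). Hoxc5 read 33.95, 5.99 and 3.35 and 842, 1044 and 999.5 (-4.80 (SE 0.37, adjusted p = 7.15e-10)). Its second probe set above the filter on mean signal gave -2.78, and one below the filter gave -3.79. Hoxc6 read 345, 343 and 110.0 and 2199, 2228 and 1989 (-3.05 (SE 0.39, adjusted p = 1.86e-06)). Hoxc6 alone of the 4 kept signals above 100 in WA. On the WC arrays Hoxc8 read 51.7, 51.6 and 58.7 and Hoxc4 13.9, 19.6 and 58.1, and of the empty-vector arrays the WB ones alone gave high signals of both.

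In the Hoxb cluster on chromosome 11, Hoxb2 read 228, 171 and 157 in WA and 835, 967 and 746 in WB (-2.07 (SE 0.30, adjusted p = 1.26e-05)), and Hoxb6 59.9, 21.7 and 55.1 and 393, 269 and 294 (-2.35 (SE 0.38, adjusted p = 5.08e-05)). Hoxb3 differed by -1.64 (adjusted p = 0.00535). Hoxb9 differed by -1.35 (adjusted p = 0.0101), and without WA replicate 3 its call was lost (adjusted p = 0.0964). Hoxb4 and Hoxb7 were not called, at -0.45 (adjusted p = 0.297) and 0.25 (adjusted p = 0.624), but the other probe set of Hoxb4 gave -1.23, with 87.5, 106 and 23.5 in WA and 204, 159 and 185 in WB.

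Hoxa3 was the called gene of the Hoxa cluster, at 251, 162 and 128 in WA and 429, 351 and 350.3 in WB (-1.02 (SE 0.24, adjusted p = 0.00251)). Its other probe sets above the filter gave -2.84 and -0.53, and one below it, with mean signals of 25.9 and 14.3, gave 0.33. Hoxa5 read 623, 648 and 269.6 in WA and 486, 674 and 225 in WB on the probe set kept (0.18 (adjusted p = 0.738)), while its other probe set gave -1.69, so its direction depends on the probe set. Genes toward the far end of the clusters were not called: Hoxa10 differed by 0.32 (adjusted p = 0.469), Hoxa11 by -0.01 (adjusted p = 0.968), Hoxa13 by -0.09 (adjusted p = 0.87) and Hoxd13 by 0.11 (adjusted p = 0.752). Their signals were low in WA and WB, with means of 65.9 and 47.0 for Hoxa10, 139 and 141 for Hoxa11, 73.7 and 83.6 for Hoxa13 and 113 and 103 for Hoxd13. At such signals the lack of a call does not show like expression. WC was high in several of these genes, with Hoxa10 at 2645, 2623 and 2280.4 and Hoxd13 at 1671, 1014 and 1675. Hoxa9, Hoxd3, Hoxd8 and Hoxd9 were not called either, and Hoxd9, at 193, 254 and 306 in WA and 129.8, 92.1 and 176 in WB (0.83 (adjusted p = 0.0719)), was the nearest of the 20 to a call toward WA.

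**Figure D2:**
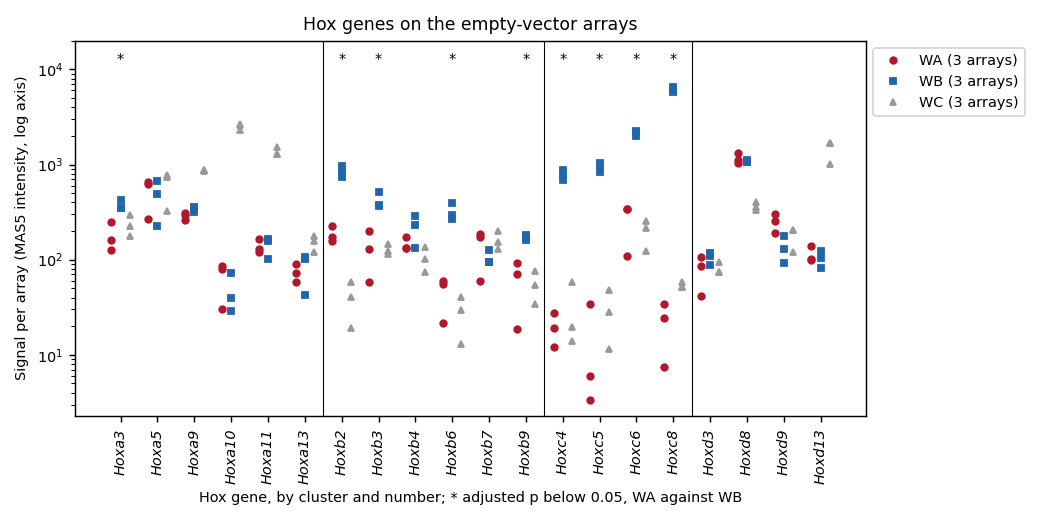
Signals of the 20 tested Hox genes on each empty-vector array, on a log axis, ordered by cluster and number, with a star where WA and WB differed at an adjusted p below 0.05. The 9 starred genes are all higher in WB, and the Hoxc genes show the widest gap. WC is drawn for orientation and is high for Hoxa10, Hoxa11 and Hoxd13.

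Of the 7 Hox cofactors tested, TALE homeobox factors that bind DNA with Hox proteins, 3 were higher in WB and 0 in WA, with a median of -0.18. That was 42.9% called, against 26.2% of all autosomal genes, and the 3 became 1 without WA replicate 3 or WB replicate 2. Meis1 averaged 178 ± 16.5 in WA and 377 ± 39.6 in WB (SD, n = 3 arrays each), a difference of -0.99 (adjusted p = 0.0009), with other probe sets at -0.44 and -0.29. Pknox1 and Meis2 differed by -0.52 (adjusted p = 0.00933) and -0.50 (adjusted p = 0.0213), and leaving out WA replicate 3 (adjusted p = 0.0576 and 0.119) or WB replicate 2 (0.0908 and 0.078) ended either call.

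Transcription factors of the limb and body wall leaned to WB as well. Of 15 tested, 8 were higher in WB and 1 in WA, 60% in all against 26.2% of all autosomal genes, with a median of -0.47. Tbx3, a T-box factor of posterior limb and mammary line, read 129, 126 and 97.6 in WA and 545, 527 and 682 in WB (-2.11 (SE 0.16, adjusted p = 7.62e-10)). Emx2, a homeobox factor of shoulder girdle, urogenital tract and forebrain, read 554, 543 and 331 and 1540.4, 1461 and 1429 (-1.62 (SE 0.17, adjusted p = 1.29e-07)), and Lhx9, a LIM factor of limb bud and gonad, 493, 404 and 342 and 1088, 1041 and 1068 (-1.33 (SE 0.14, adjusted p = 1.18e-07)). The lines did not overlap for these 3, as for 40.9% of all autosomal genes, and the 3 were picked for their wide differences. Msx2, a BMP-responsive homeobox gene, was the member higher in WA, by 1.28 (adjusted p = 0.0291), and leaving out WA replicate 1, WA replicate 2 or WB replicate 2 ended that call. Prrx1, a general marker of limb bud mesenchyme, was not called (4589 and 5009, difference -0.14 (adjusted p = 0.301)). Shox2 and Tbx15 were not called, with -0.05 (adjusted p = 0.836) and -0.12 (adjusted p = 0.698).

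Head and neural crest factors were split, with 4 of 14 tested higher in WA and 2 higher in WB and a median of 0.08. The share called was 42.9%, against 26.2% of all autosomal genes. After Pax3, Dlx2, a homeobox gene of the jaw arches, read 948, 786 and 547 in WA and 209.6, 318 and 213 in WB (1.53 (SE 0.20, adjusted p = 2.30e-06)). Dlx5, which also marks early bone, differed by 1.32 (adjusted p = 0.00465), a call lost without WB replicate 3 (adjusted p = 0.0534). Eya1, a transcription cofactor of ear, kidney and muscle development, went the other way, at 229, 262 and 224 and 560.3, 569 and 496 (-1.11 (SE 0.19, adjusted p = 6.75e-05)), with its other probe set at -0.28.

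Factors of visceral and lateral mesoderm were also split, with 6 of 22 higher in WA, 4 higher in WB and a median of 0.10. The share called was 45.5%, against 26.2% of all autosomal genes. Nr2f1, the nuclear receptor COUP-TFI, read 725, 705 and 481 in WA and 109, 85.7 and 71.8 in WB (2.55 (SE 0.18, adjusted p = 1.62e-10)). Foxd1, a forkhead factor of kidney stroma and craniofacial mesenchyme, read 76.6, 74.1 and 69.9 and 8.04, 2.66 and 12.02 (1.67 (SE 0.30, adjusted p = 0.000146)). The Gata factors went the other way: Gata6, a zinc finger factor of heart and gut mesoderm, read 144, 118 and 112 and 829.6, 774 and 809 (-2.49 (SE 0.14, adjusted p = 2.64e-12)), and Gata2, of blood and urogenital mesenchyme, 379, 349.8 and 252 and 1044, 1061 and 1025 (-1.63 (SE 0.14, adjusted p = 3.74e-09)).

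Among 18 fibroblast markers tested, 8 were higher in WB and 4 in WA, 66.7% in all against 26.2% of all autosomal genes. The 4 became 1 without WA replicate 3, WB replicate 1 or WB replicate 2, and 2 without WB replicate 3. The median of the 18 markers, 0.17, lay on the WA side, while the larger differences lay on the WB side. Beside Cd34 and Dcn, Dpt, the dermal matrix protein dermatopontin, read 203, 244 and 97.6 in WA and 2596, 2581 and 2991 in WB (-3.82 (SE 0.30, adjusted p = 8.23e-10)). Lum, lumican, a keratan sulfate proteoglycan of collagen fibrils, read 128, 117 and 97.7 and 611, 643 and 882 (-2.41 (SE 0.38, adjusted p = 3.17e-05)). Pdgfra, the alpha receptor of platelet-derived growth factor (PDGF), and Pdpn, podoplanin, were singled out after their values were seen: they differed by -2.17 (adjusted p = 6.11e-09) and -2.25 (adjusted p = 1.34e-13). The summed signal of the list overlapped between the lines, at 154226 to 195877 in WA and 157439 to 173254 in WB.

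Called were 4 of 21 smooth muscle and contractile genes and 2 of 10 skeletal muscle genes. Both shares lay somewhat under the 26.2% of all autosomal genes, which in lists this short does not set muscle markers apart. Of 21 smooth muscle and contractile genes, 3 were higher in WA and 1 in WB, with a median of 0.11. Actg2, gamma smooth muscle actin, read 12602, 11481 and 14417 in WA and 5808, 5707 and 6309 in WB (1.10 (SE 0.18, adjusted p = 6.01e-05)), and Mcam, an adhesion molecule of pericytes and smooth muscle, 3871, 3872 and 5248 and 1224, 1193 and 1397 (1.74 (SE 0.23, adjusted p = 3.58e-06)). Acta2, alpha smooth muscle actin and the usual mark of myofibroblasts, averaged 22268 ± 5590.3 in WA and 19602 ± 545 in WB (SD, n = 3 arrays each) and was not called (0.16 (adjusted p = 0.437)). Of 10 skeletal muscle genes, 2 were higher in WA, among them Chrna1, an acetylcholine receptor subunit, at 1.42 (adjusted p = 0.00476), while Myod1, the muscle master regulator, averaged 95.6 and 86.6.

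Skeletal tissue markers gave a few calls. The shares were 20% of the cartilage, 28.6% of the tendon and 50% of the bone genes, against 26.2% of all autosomal genes. Of 10 cartilage genes, 1 was higher in each line: Col11a1, a minor fibrillar collagen chain, differed by 1.66 (adjusted p = 0.00663), and Sox9, the cartilage master regulator, by -0.94 (adjusted p = 0.0104). Without WA replicate 3 both calls were lost (adjusted p = 0.0525 and 0.112), and that of Sox9 also without WB replicate 2 (adjusted p = 0.0605). Of 7 tendon genes, 2 were higher in WA and 0 in WB: Tnc, tenascin-C, read 11048, 12031 and 14044 in WA and 5163, 5517 and 5823 in WB (1.16 (SE 0.13, adjusted p = 3.59e-07)), and Mkx, the tendon factor Mohawk, differed by 1.14 (adjusted p = 0.000881). Of 4 bone genes, 2 were higher in WA, Dlx5 and Tnfrsf11b, the osteoclast decoy receptor osteoprotegerin (0.85 (adjusted p = 0.00182)).

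Of 7 adipocyte genes, 3 were higher in WB and 1 in WA, with a median of -0.85, and with a stricter filter the 3 became 1. The share called was 57.1%, against 26.2% of all autosomal genes. Lpl, lipoprotein lipase, read 398, 379.9 and 211 in WA and 1049, 1050.1 and 1320.1 in WB (-1.76 (SE 0.29, adjusted p = 4.97e-05)). Cebpa, a factor of fat cell differentiation, differed by -1.30 (adjusted p = 0.0029) and Fabp4, a fatty acid carrier, by -0.94 (adjusted p = 0.0016), although another probe set of Fabp4 gave 0.10. Plin2, a lipid droplet coat protein made in many cells, was higher in WA (0.80 (adjusted p = 3.93e-06)). Adipoq, the hormone of mature fat cells, averaged 5.28 and 24.9.

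Of 12 neural and glial genes, 3 were higher in WA and 2 in WB, with a median of -0.15. The share called was 41.7%, against 26.2% of all autosomal genes. Stmn2, a tubulin-binding protein of growth cones, read 188, 296 and 97.2 in WA and 5.79, 6.03 and 28.4 in WB (2.52 (SE 0.30, adjusted p = 6.85e-07)). Tubb3, neuronal beta tubulin, read 799, 834 and 1294 and 258, 289.8 and 275 (1.71 (SE 0.19, adjusted p = 3.09e-07)), and Gap43, a growth cone protein, 167, 163 and 145 and 17.9, 73.2 and 60.3 (1.39 (SE 0.27, adjusted p = 0.000394)). Map2 was higher in WB (-0.55 (adjusted p = 0.015)), a call lost without WA replicate 1, WB replicate 1 or WB replicate 3. Of the regulators in the list, Sox2 averaged 25.99 in WA and 8.35 in WB. Other members had higher signals in both lines, among them, chosen after their values were seen, Sox10 (169 and 174) and Ncam1 (4255 and 3513). Sox11, a factor of immature neurons and embryonic mesenchyme, read 941, 667 and 1013 and 226, 197 and 172 (2.00 (SE 0.18, adjusted p = 1.47e-08)). Of 10 Sox genes only Sox9 was called beside Sox11, a share of 20%.

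Of 12 epithelial genes, 2 keratins were higher in WB and 0 in WA, with a median of -0.31. The share called was 16.7%, under the 26.2% of all autosomal genes. It was 22.2% for the endothelial and 12.5% for the pluripotency and germ cell genes. Krt19 read 174, 122 and 205 in WA and 576, 562 and 486 in WB (-1.59 (SE 0.19, adjusted p = 1.13e-06)), and Krt8 differed by -0.90 (adjusted p = 0.00818), a call lost without WA replicate 3 (adjusted p = 0.0807). Of 9 endothelial genes 1 was called in each direction, Eng (1.10 (adjusted p = 0.0422)) and Kdr (-0.63 (adjusted p = 0.043)), and each lost its call without WA replicate 3, WB replicate 1 or WB replicate 2, Eng also without WA replicate 1 or WA replicate 2 and Kdr also without WB replicate 3. Of 8 pluripotency and germ cell genes, 1 was called, Klf4 (-0.66 (adjusted p = 0.0135)), which fibroblasts also express, and the call was lost without WA replicate 3 (adjusted p = 0.0603) or WB replicate 1 (adjusted p = 0.0524).

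**Figure D3:**
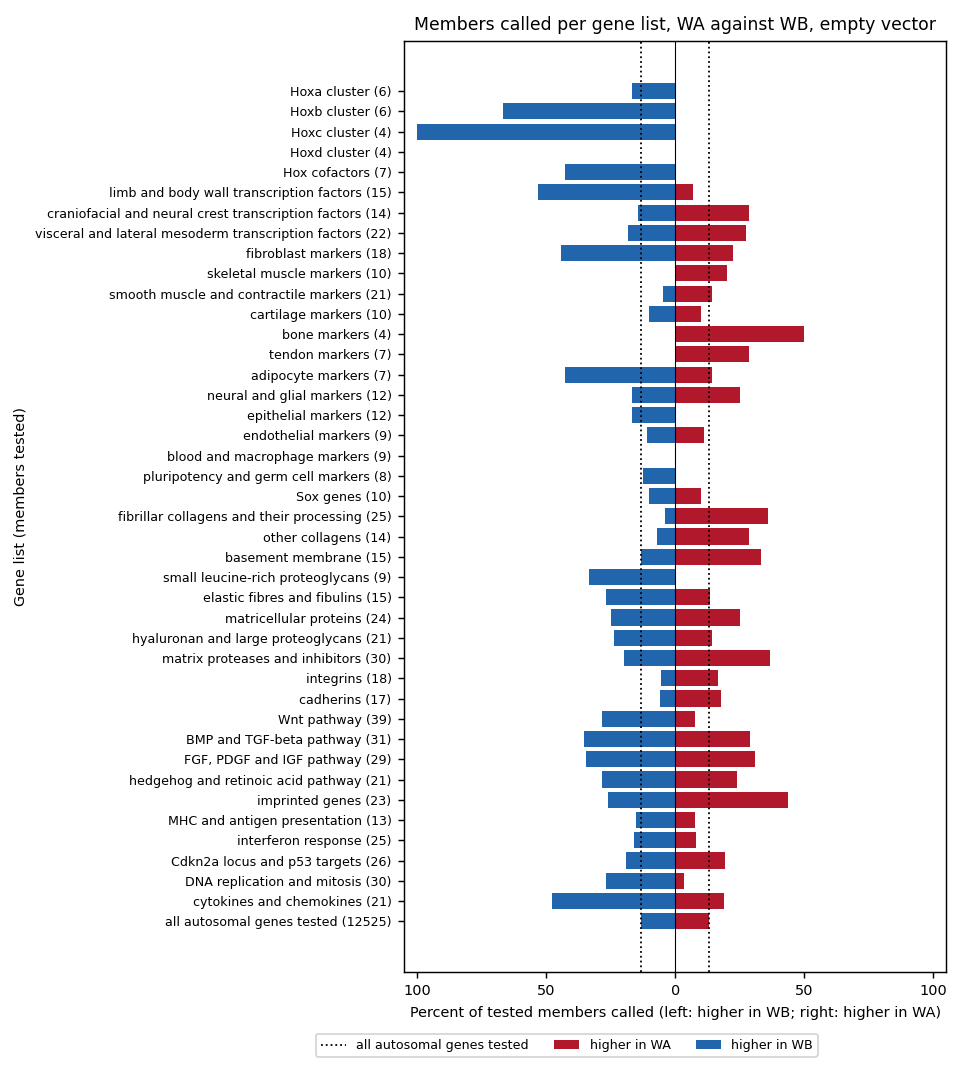
Share of the tested members of each gene list that was called higher in WA (right) or higher in WB (left), with the number tested in brackets and dotted lines at 12.9% and 13.3%, the shares over all 12525 autosomal genes. The Hoxc and Hoxb lists reach furthest to the left, and lists with under 10 members move in large steps. Hoxc and Hoxb genes low in WA and WC could pass the filter on mean signal through WB.

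Matrix genes were counted by class. Of the fibrillar collagens and their processing enzymes, 9 of 25 were higher in WA and 1 in WB, with a median of 0.23. That was 40% called, against 26.2% of all autosomal genes. Without WA replicate 3 the count higher in WA was 5. Col27a1, a cartilage-type fibrillar collagen, read 1019, 958 and 859 in WA and 419, 367 and 394 in WB (1.22 (SE 0.17, adjusted p = 5.28e-06)). Loxl3, a lysyl oxidase that crosslinks collagen, read 4054, 3608 and 4555 and 2111, 2017 and 1890.0 (1.01 (SE 0.13, adjusted p = 3.15e-06)), and Bmp1, which trims procollagen ends, differed by 0.92 (adjusted p = 6.64e-06), with other probe sets between -0.03 and 1.13. Of 14 other collagens 4 were higher in WA and 1 in WB, 35.7% in all, with a median of 0.13. Col12a1, a collagen on the fibril surface, read 6123, 6119.8 and 4859 and 865, 836 and 1049 (2.61 (SE 0.17, adjusted p = 4.99e-11)). Col7a1, of the anchoring fibrils under skin epithelium, was the 1 higher in WB, at 851, 701 and 651 and 1988, 1720.5 and 1855 (-1.32 (SE 0.15, adjusted p = 4.33e-07)).

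Of the small leucine-rich proteoglycans, which coat and space collagen fibrils, 3 of 9 were called higher in WB and 0 in WA, with a median of -0.70, and the 33.3% called lay near the 26.2% of all autosomal genes. With quantile normalization or the mean of probe sets, 1 was called higher in WA. Ogn, osteoglycin, joined Dcn and Lum at 1101, 644 and 803 in WA and 3312, 2921 and 3612 in WB (-1.95 (SE 0.28, adjusted p = 9.03e-06)). Ogn was higher still in WC, at 12304, 8984 and 6595. Fmod, fibromodulin, was not called (0.36 (adjusted p = 0.504)).

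Elastic fibre genes held some of the widest gaps of the matrix, in both directions. Of 15, 2 were higher in WA and 4 in WB, 40% in all against 26.2% of all autosomal genes, with a median of -0.13. Against Efemp1 in WA stood Ltbp2, a latent TGF-beta binding protein of microfibrils, at 427, 426 and 419 in WA and 6877, 6549 and 7211 in WB (-3.95 (SE 0.20, adjusted p = 3.96e-13)). Ltbp3 differed by -0.97 (adjusted p = 7.44e-06) and Fbln1, fibulin-1, by -1.10 (adjusted p = 9.23e-05), with other probe sets of Fbln1 at -0.71 and -0.31.

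Basement membrane genes gave 5 of 15 higher in WA and 2 in WB, with a median of -0.03. In all 46.7% were called, against 26.2% of all autosomal genes. Agrn, agrin, a heparan sulfate proteoglycan, read 569, 716 and 847 in WA and 94.8, 210.3 and 163 in WB (2.07 (SE 0.20, adjusted p = 2.71e-08)). Laminin chains moved apart from each other: Lama2 was higher in WA (1.07 (adjusted p = 0.000599)), and Lama4 and Lamb2 higher in WB (-1.39 (adjusted p = 0.00126) and -0.82 (adjusted p = 0.00732)). Lama4 signals were 535, 772 and 627 in WA and 1648, 1561 and 1941 in WB.

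Matricellular proteins, which signal from the matrix without building it, divided evenly, with 6 of 24 higher in each line and a median of 0.22. That made 50% called, against 26.2% of all autosomal genes. Beside Ccn3, Smoc1, a calcium-binding BMP modulator, read 244, 250.5 and 162 in WA and 1083, 1189 and 1481 in WB (-2.41 (SE 0.25, adjusted p = 7.80e-08)). Ccn4 read 7321, 8098 and 11490.0 and 3423, 3128 and 3635 (1.37 (SE 0.17, adjusted p = 1.82e-06)), so CCN family members went in opposite directions. Edil3, an integrin ligand, was higher in WA by 2.03 (adjusted p = 7.84e-07), with other probe sets between -0.57 and 1.71. Postn, periostin, and Sparc were not called (-0.29 (adjusted p = 0.44) and 0.34 (adjusted p = 0.141)).

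Among 21 hyaluronan and proteoglycan genes, 3 were higher in WA and 5 in WB, with a median of -0.01. The 38.1% called compare with 26.2% of all autosomal genes, and without WA replicate 3 the 5 became 3. Sdc4, syndecan-4, read 474, 625 and 438 in WA and 3242, 3125 and 3746 in WB (-2.68 (SE 0.15, adjusted p = 2.64e-12)), but its second probe set gave 0.48. Gpc1, glypican-1, was higher in WA (0.88 (adjusted p = 3.63e-05)).

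Matrix proteases and their inhibitors were called in 17 of 30 cases, 56.7% against 26.2% of all autosomal genes, with 11 higher in WA, 6 higher in WB and a median of 0.31. Without WA replicate 3, or without WB replicate 1, the 11 became 7. Mmp2, gelatinase A, read 9057, 8955 and 10941 in WA and 2930.2, 3376 and 3809.6 in WB (1.51 (SE 0.15, adjusted p = 7.17e-08)), on the same side as Ctsk. Adamts5, the main aggrecanase, read 754, 425 and 875 and 6889, 6744 and 7898 (-3.40 (SE 0.28, adjusted p = 2.74e-09)), and its other probe sets gave -3.54 to -3.32. Adamts9 differed by -1.58 (adjusted p = 2.35e-06) on the probe set kept and by -0.04 on the other.

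Adhesion receptors gave few calls. Of 18 integrins, 3 were higher in WA and 1 in WB, close to the background share, with a median of -0.03, and without WA replicate 3 the 3 became 1. Itga6, a laminin receptor chain, differed by 0.94 (adjusted p = 0.00104) and Itga3, another, by -0.73 (adjusted p = 0.00633), and their other probe sets gave 0.24 for Itga6 and -0.40 and -0.26 for Itga3. Of 17 cadherins 3 were higher in WA and 1 in WB, 23.5% in all and near the 26.2% of all autosomal genes. Fat4, a giant cadherin of planar polarity, read 100.3, 152 and 51.2 in WA and 1252, 1334 and 1656 in WB (-3.61 (SE 0.25, adjusted p = 1.23e-10)), and Cdh13, a cadherin without a cytoplasmic tail, 1022, 1009.7 and 600.4 and 189, 36.3 and 141 (2.78 (SE 0.35, adjusted p = 1.61e-06)). Cdh2, N-cadherin, differed by 0.43 (adjusted p = 0.0013).

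Secreted signals of growth and patterning, and what receives them, were also measured. In the Wnt list 3 of 39 were higher in WA and 11 in WB, with a median of -0.16, and the 11 became 7 without WA replicate 3, WB replicate 1 or WB replicate 2. Without WA replicate 3 the 3 became 6. With all arrays 35.9% of the list was called, against 26.2% of all autosomal genes. Secreted antagonists were among the WB genes: Sfrp2 read 838, 952 and 360.2 in WA and 6434, 6176 and 7318 in WB (-3.28 (SE 0.44, adjusted p = 3.86e-06)), and Sfrp1 113, 157 and 151 and 584, 607 and 653 (-1.97 (SE 0.22, adjusted p = 2.90e-07)). Fzd1, a Wnt receptor, differed by -1.68 (adjusted p = 3.18e-07). Lef1, a nuclear partner of beta-catenin and itself a Wnt target, was higher in WA, at 535, 682 and 448 and 166, 175 and 88.8 (1.82 (SE 0.26, adjusted p = 7.61e-06)).

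In the BMP and TGF-beta list, 20 of 31 were called, 64.5% against 26.2% of all autosomal genes. Of the 20, 9 were higher in WA and 11 in WB, and the median of the list was -0.18. Ligands went both ways, Tgfb3 to WA and Bmp4 to WB, the last at 413, 299 and 239 in WA and 1193, 939 and 1587 in WB (-1.89 (SE 0.39, adjusted p = 0.000777)). Id2, a helix-loop-helix inhibitor induced by BMP signals, read 827, 665 and 279 and 2340.4, 2247 and 2414 (-2.07 (SE 0.24, adjusted p = 4.35e-07)), on the same side as Bmp4 and the antagonist Fst.

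In the FGF, PDGF and IGF list 9 of 29 were higher in WA and 10 in WB, with a median of 0.11. Together 65.5% were called, against 26.2% of all autosomal genes. IGF-binding proteins, which hold or deliver IGF outside the cell, split between the lines. Igfbp6 read 225, 192 and 203 in WA and 3699, 3716 and 3561 in WB (-4.00 (SE 0.15, adjusted p = 7.26e-16)). Igfbp2 read 676, 883 and 955 and 83.2, 63.3 and 113 (2.99 (SE 0.51, adjusted p = 9.14e-05)), on the WA side with Igfbp5. Igf2, the fetal growth factor, was higher in WA at 1359, 1764 and 798 against 263, 269 and 242 (2.17 (SE 0.40, adjusted p = 0.000227)), though its other probe set gave 0.01.

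In the hedgehog and retinoic acid list 5 of 21 were higher in WA and 6 in WB, with a median of -0.28. In all 52.4% were called, against 26.2% of all autosomal genes. The 5 became 2 without WB replicate 1 and 3 without WA replicate 3 or WB replicate 3. The widest gaps concerned handling of retinoic acid, the vitamin A signal that patterns the body axis and switches on Hox genes. Crabp1, its binding protein, read 1665, 1984 and 1208 in WA and 140.0, 208 and 109.8 in WB (3.23 (SE 0.17, adjusted p = 1.59e-12)), and Cyp26b1, the enzyme that degrades it, 445, 346 and 176 and 26.2, 44.8 and 126 (2.04 (SE 0.43, adjusted p = 0.000821)). Gas1 and Cdon, coreceptors of hedgehog, were higher in WB (-1.16 (adjusted p = 0.00471) and -0.92 (adjusted p = 0.00151)). For Gas1 the difference was -0.56 without WA replicate 3, and the call was lost when the 6 empty-vector arrays were fitted alone (adjusted p = 0.0795).

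Imprinted genes, expressed from 1 parental copy and many of them regulators of fetal growth, were called in 16 of 23 cases, 10 higher in WA and 6 in WB, with a median of 0.18. This was 69.6%, against 26.2% of all autosomal genes. Peg3, a zinc finger gene, read 1063, 841 and 742 in WA and 174, 142 and 137 in WB (2.37 (SE 0.18, adjusted p = 6.04e-10)), beside Slc38a4 and Igf2 on the WA side. Dlk1 and Dcn were the widest on the WB side, and Cdkn1c, a growth-restraining cyclin kinase inhibitor singled out after its value was seen, read 135, 115 and 157 and 677, 612 and 741 (-2.15 (SE 0.31, adjusted p = 1.33e-05)). The array does not read which copy was expressed.

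Cytokines and chemokines leaned to WB, with 10 of 21 higher there, 4 higher in WA and a median of -0.35. The 66.7% called stand against 26.2% of all autosomal genes, and without WA replicate 3 the 4 became 1. Cxcl12, the stromal chemokine that holds stem cells in their niche, read 1559.7, 1400.2 and 1609 in WA and 16255, 17283 and 18581 in WB (-3.49 (SE 0.14, adjusted p = 4.39e-15)). Cxcl5, a neutrophil attractant, read 89.3, 143 and 26.1 and 509.9, 558 and 622 (-2.59 (SE 0.25, adjusted p = 3.49e-08)), and Cx3cl1, fractalkine, 477, 528 and 439 and 1579.6, 1437 and 1469 (-1.59 (SE 0.14, adjusted p = 9.36e-09)).

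Lists near the background of 26.2% were those of antigen presentation, with 3 of 13 called (23.1%), and of the interferon response, with 6 of 25 (24%). Of the 6, 2 were higher in WA and 4 in WB, and the median of the interferon list was 0.13. H2-M3, a nonclassical class I gene, read 146, 148 and 148 in WA and 704, 726 and 668 in WB (-2.09 (SE 0.15, adjusted p = 2.10e-10)). Ifi202b was higher in WB (-1.23 (adjusted p = 1.99e-07)) and Irgm1, an interferon-induced GTPase, higher in WA (1.20 (adjusted p = 3.60e-06)), and Igtp (-1.21 (adjusted p = 0.0108)) and Ifi204 (-1.18 (adjusted p = 0.00681)) were also higher in WB. The call of Igtp was lost without WA replicate 1 (adjusted p = 0.0539). Genes of such families share sequence, so a probe set may read more than 1 of them.

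Genes tied to immortal growth were called in 10 of 26 cases for the Cdkn2a locus and p53 targets, 38.5% against 26.2% of all autosomal genes. The calls were 5 in each direction, and the 5 higher in WB became 3 without WA replicate 1, WB replicate 2 or WB replicate 3. Cdkn2a, the p16 and ARF tumour suppressor locus, read 628, 759.9 and 736 in WA and 992, 1357 and 841 in WB (-0.55 (SE 0.17, adjusted p = 0.0206)), and its neighbour Cdkn2b 3126, 3602 and 5659 and 2472, 2495 and 2437 (0.69 (SE 0.18, adjusted p = 0.00569)). The Cdkn2a call was lost without WA replicate 1 or WB replicate 2, and the Cdkn2b call without WA replicate 3 (adjusted p = 0.0669). Pmaip1, the p53-induced death gene Noxa, read 459, 397 and 911 and 45.1, 59.7 and 97.3 (2.71 (SE 0.32, adjusted p = 6.65e-07)). Cdkn1a, p21, was not called (0.30 (adjusted p = 0.403)). Of 30 DNA replication and mitosis genes 8 were higher in WB and 1 in WA, 30% in all and near the 26.2% of all autosomal genes, with a median of -0.15. Among them were the helicase subunits Mcm4 (-0.67 (adjusted p = 6.79e-07)) and Mcm5 (-0.61 (adjusted p = 2.89e-05)). The endogenous Myc was not called (0.04 (adjusted p = 0.867)), and Src was higher in WB (-0.51 (adjusted p = 0.00262)), with its other probe set at -0.17.

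Differences were also uneven along the genome. On chromosome 16, 195 of 426 genes tested (45.8%) were higher in WB and 15 in WA, and the median was -0.36 against -0.02 over all autosomes. The shift ran along the whole chromosome: split into 4 equal stretches of genes in map order, its medians were -0.38, -0.39, -0.30 and -0.31. Relative to the mean of the 6 arrays, the chromosome's median lay on the same side for every array of a line, and the lines did not overlap. The same held for many other autosomes, among them chromosome 17 with a median of -0.04, so it does not single out chromosome 16. These arrays are also those that gave the medians. In the c-myc arrays the chromosome 16 median was -0.33 and in the v-src arrays -0.35. Against WC the medians were -0.01 for WA and 0.31 for WB, in comparisons that share the WC arrays with each other and the WA or WB arrays with the one described. Adamts5, Fam43a and Mcm4, named above as higher in WB, lie on chromosome 16, and Gap43, higher in WA, lies there too. Chromosome 7 leaned the other way, with 237 of 994 genes higher in WA and 34 higher in WB and a median of 0.17, and chromosomes 18 and 1 had medians of 0.15 and 0.11. Medians toward WB were -0.15 on chromosome 15, -0.14 on chromosome 14, -0.12 on chromosome 3 and -0.11 on chromosomes 6 and 8.

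**Figure D4:**
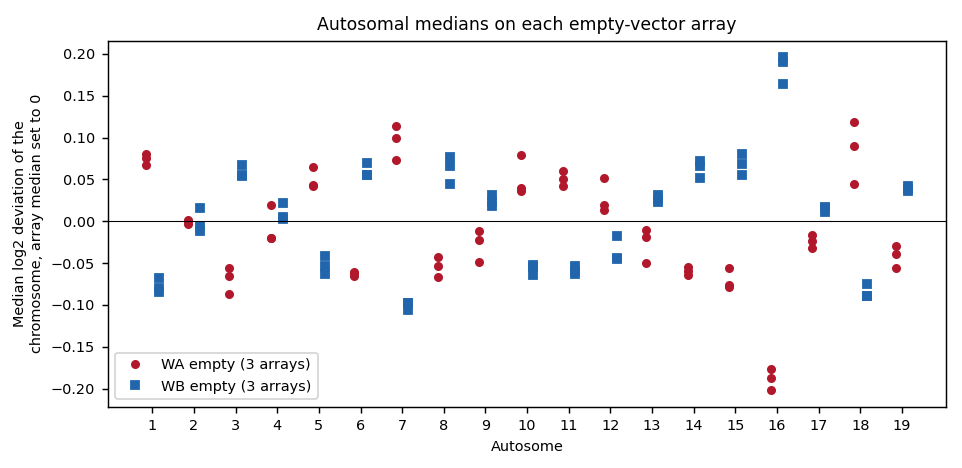
Median log2 deviation of each autosome's genes from their mean over the 6 arrays, with the median of each array set to 0. Each point is 1 array. Chromosome 16 has the widest separation of the lines, with WB above WA, and chromosome 7 separates them the other way.

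Runs of neighbouring called genes were also listed. The longest runs of neighbouring tested genes called in the same direction held 7 genes, and both such runs were on chromosome 16, higher in WB. With 45.8% of the genes of that chromosome called higher in WB, long runs can come from this share alone. The run lengths to be had from the shares called were not computed. Igfbp2 and Igfbp5 fell in a run of 5 higher in WA on chromosome 1 (median 0.76). Serpinb6b lay in a run of 5 higher in WB on chromosome 13 (median -0.60). The 4 Hoxc genes formed a run with a median of -4.52, the widest median of the runs of at least 4 genes.

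The arrays with c-myc and with v-src measured the same 2 lines again on other arrays. With c-myc, 3411 autosomal genes (27.2%) were called between WA and WB, and with v-src 2724 (21.7%). Of the 669 genes called at least 2-fold apart with empty vector, 410 (61.3%) were called in the same direction with c-myc, 427 (63.8%) with v-src and 304 (45.4%) with both. Called in the opposite direction were 20 genes with c-myc and 7 with v-src. Of the 24 leading genes, 23 were called in the same direction with c-myc, 22 with v-src and 21 with both.

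All 4 Hoxc genes were called in the same direction with c-myc and with v-src. For Hoxc8 it was -6.67 with c-myc and -5.98 with v-src, for Hoxc4 -4.39 and -3.77, and for Hoxb6 -2.25 and -2.43. Cd34 (-4.32 and -4.10), Dlk1 (-4.12 and -4.05) and Slc38a4 (5.98 and 4.55) also kept wide gaps. Serpinb2 and Ccn3 did not: with v-src their differences were 0.28 and 0.41, and neither was called. The difference between lines varied with the vector, by an F test of the 3 contrasts in limma, for 2253 autosomal genes (18%) and for 17 of the 24 leading genes. The 24 genes were chosen for wide differences on the empty-vector arrays, which also enter this test. That choice favours a smaller difference with the other vectors, so the count for the 24 is not comparable with the share of all genes.

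**Figure D5:**
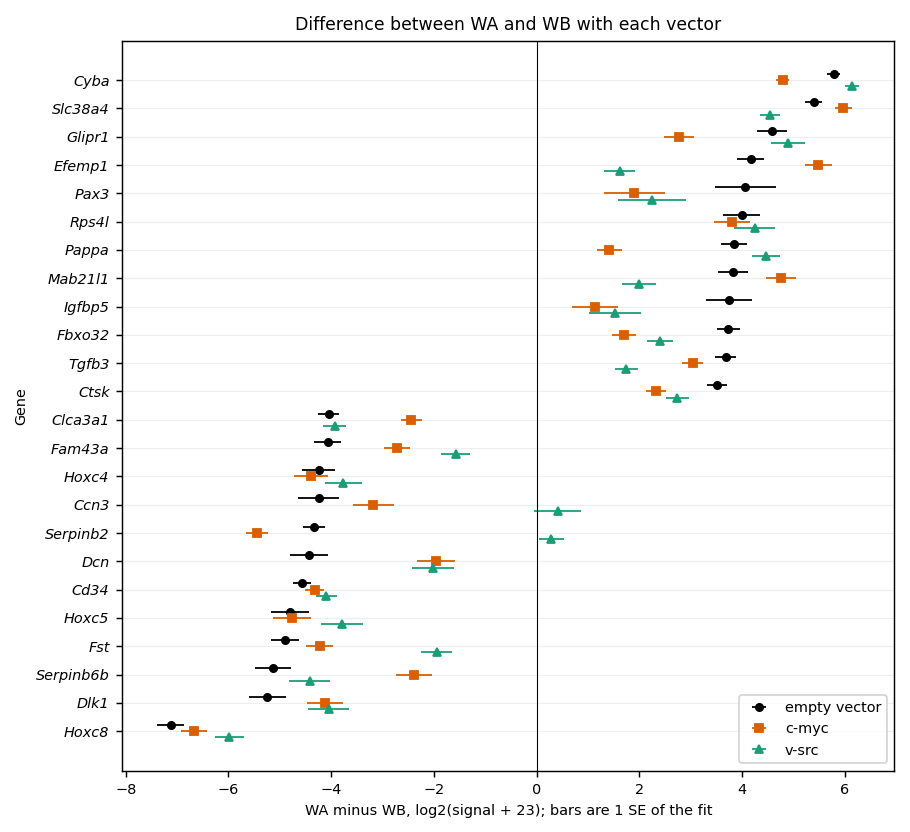
Difference between WA and WB on the log2(signal + 23) scale for the 24 leading genes with empty vector, c-myc and v-src, with bars of 1 SE from the fit. All 24 keep their sign with c-myc, and with v-src Serpinb2 and Ccn3 lie near 0.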

How the data were processed

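The deposited values are linear intensities of 45101 Affymetrix probe sets per array, which the authors made with MAS5, per the submitters' processing notes. The MAS5 version, masking and detection calls are not stated in what was used here. The 2% trimmed mean was 500 on all 26 arrays. Of the probe sets, 34945 had 1 gene symbol in the platform annotation, 932 had several and 9211 were not listed, and the last 2 kinds and 64 control probe sets were not used. Chromosomes came from RefSeq GRCm38.p6.

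From these intensities log2(value + 23) was computed, 23 being the rounded 20th percentile. Probe sets at or below the 40th percentile of mean log2 value were left out, and each gene was read from its remaining probe set of highest mean. All 26 arrays were fitted as 9 group means with limma 3.58.1 (R 4.3.3) and an intensity trend (17 residual and 6.2 prior degrees of freedom). Adjusted p-values are Benjamini-Hochberg over 13018 genes. The number of arrays limits the precision. The authors' columns all mapped to labelled samples.

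The comparison and the 41 gene lists were chosen with earlier results of these data known. Named genes are the 12 largest differences each way among called genes without overlap, up to 4 called members per list, the Hox genes, Cdkn2a, Cdkn2b, Myc and Src, and uncalled genes that mark a list. In simulated data of this comparison over 13018 genes, 67, 67 and 66 genes were given changes of 0.5, 1 and 2 on the log2 scale. The fit recovered 43.3%, 67.2% and 100% of them in turn, and called 6 of the 12818 unchanged genes. On the real arrays 3282 autosomal genes were called, so the adjustment for multiple testing differed, and these shares need not hold there. Same-numbered WA and WB arrays deviated together with r of 0.07, 0.10 and 0.19, and the labels give no shared batch, so the numbers were not taken as pairs.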

Additional observations from a re-analysis of the deposited data

Results flagged for a closer look

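For the genes below the difference between WA and WB itself varied between vectors, by limma's F test over the 3 contrasts, with Benjamini-Hochberg adjustment. Over all autosomal genes 18% passed this test. Most genes below were named for their difference on the empty-vector arrays, which enters the test. That choice favours a smaller difference with c-myc or v-src. Values are WA minus WB on the log2(signal + 23) scale, and where 3 stand together they are for empty vector, c-myc and v-src in that order, with the adjusted p of the F test behind them. The v-src contrast rests on 3 WA and 2 WB arrays.

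In 7 cases the lines were called in opposite directions with different vectors. Mmp2 was higher in WA with empty vector, at 1.51, and higher in WB with v-src, at -1.13, with 0.55 for c-myc (adjusted p = 6.88e-08). Krt19 was higher in WB with empty vector (-1.59) and c-myc (-2.64) and higher in WA with v-src (0.65, adjusted p = 7.81e-08). With c-myc the order of the lines turned for Tnfrsf11b, from 0.85 to -0.80, with 2.36 for v-src (adjusted p = 1.36e-07), and for Pmaip1, from 2.71 to -0.89, with 2.51 for v-src (adjusted p = 3.79e-06). It also turned for the laminin chain Lama2, from 1.07 to -1.37, with 1.18 for v-src (adjusted p = 2.01e-06), and for the laminin receptor chain Itga6, from 0.94 to -1.43, with -0.11 for v-src (adjusted p = 8.74e-06). Bmp4 went from -1.89 to 1.06 with c-myc and -0.38 with v-src (adjusted p = 0.00179).

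Other genes were called between the lines with empty vector and with c-myc but not with v-src. Serpinb2 showed this most widely, at -4.33, -5.45 and 0.28 (adjusted p = 5.18e-11). Ccn3 and Smoc1, both matricellular, gave -4.24, -3.18 and 0.41 for Ccn3 (adjusted p = 1.57e-05) and -2.41, -1.73 and -0.40 for Smoc1 (adjusted p = 0.00122). The surface proteins Pdpn and Fat4 gave -2.25, -2.46 and -0.32 for Pdpn (adjusted p = 1.88e-09) and -3.61, -1.05 and -0.11 for Fat4 (adjusted p = 6.93e-07). Among regulators the values were 2.55, 2.94 and -0.03 for Nr2f1 (adjusted p = 4.91e-08) and 2.00, 1.94 and 0.32 for Sox11 (adjusted p = 0.000122). The rest were -1.39, -3.20 and -0.15 for Lama4 (adjusted p = 0.000121), 1.71, 1.26 and -0.10 for Tubb3 (adjusted p = 0.000201) and -0.51, -0.64 and 0.26 for Src (adjusted p = 0.00179). For Src, a probe set for the mouse gene may also read the v-src vector, and its part was not tested.

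A further set was called with empty vector and with v-src but not with c-myc. Matrix genes of this kind gave -3.82, -0.56 and -2.97 for Dpt (adjusted p = 1.35e-05), -1.95, 0.21 and -1.28 for Ogn (adjusted p = 0.00100), 1.01, -0.29 and 1.31 for Loxl3 (adjusted p = 3.90e-06) and 1.16, 0.15 and 0.75 for Tnc (adjusted p = 0.00127). Contractile and neurite genes gave 1.10, 0.23 and 1.76 for Actg2 (adjusted p = 0.000919), 1.74, 0.35 and 2.78 for Mcam (adjusted p = 7.27e-05), 2.52, -0.35 and 1.80 for Stmn2 (adjusted p = 7.81e-05) and 1.39, -0.15 and 2.44 for Gap43 (adjusted p = 0.000206). Secreted signals and their modulators gave -1.97, -0.31 and -0.99 for Sfrp1 (adjusted p = 0.00147), 3.75, 1.14 and 1.52 for Igfbp5 (adjusted p = 0.0101), 2.17, 0.06 and 1.52 for Igf2 (adjusted p = 0.0258) and 1.37, 0.40 and 1.20 for Ccn4 (adjusted p = 0.0132), and the coreceptor Gas1 gave -1.16, 0.64 and -1.61 (adjusted p = 0.00117). Regulators gave -1.11, 0.17 and -0.91 for Eya1 (adjusted p = 0.00211), 1.67, 0.08 and 1.10 for Foxd1 (adjusted p = 0.0253) and -0.50, 0.33 and -0.54 for Meis2 (adjusted p = 0.0116), and the interferon-induced GTPase Irgm1 gave 1.20, 0.11 and 0.88 (adjusted p = 0.0033).

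With empty vector alone the lines were called apart for 6 genes of this kind. The widest was Edil3, at 2.03, 0.24 and 0.72 (adjusted p = 0.00147). The others were 0.92, -0.29 and 0.24 for Bmp1 (adjusted p = 0.000138), 0.80, 0.11 and 0.20 for Plin2 (adjusted p = 0.00381), -0.61, -0.12 and -0.27 for Mcm5 (adjusted p = 0.0298), 1.32, -0.18 and -0.12 for Dlx5 (adjusted p = 0.042) and -0.92, 0.08 and -0.47 for Cdon (adjusted p = 0.0484).

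The remaining genes called with empty vector were called in the same direction with all 3 vectors and differed in size. Cxcl12 was furthest apart with c-myc, at -3.49, -5.65 and -3.09 (adjusted p = 5.08e-09). Efemp1 and Crabp1 were closest with v-src, with 4.17, 5.49 and 1.62 for Efemp1 (adjusted p = 7.78e-07) and 3.23, 4.04 and 1.15 for Crabp1 (adjusted p = 9.37e-08). Fst and Fam43a narrowed from empty vector to v-src, with -4.89, -4.22 and -1.95 for Fst (adjusted p = 3.44e-05) and -4.07, -2.72 and -1.58 for Fam43a (adjusted p = 0.000212). Pappa and Serpinb6b were closest with c-myc, with 3.84, 1.41 and 4.47 for Pappa (adjusted p = 2.71e-06) and -5.13, -2.38 and -4.42 for Serpinb6b (adjusted p = 0.00093). Fabp4 was furthest apart with v-src, with -0.94, -1.16 and -3.32 for Fabp4 (adjusted p = 1.25e-05). For other leading genes the adjusted p of the F test was 2.98e-05 for Cyba, 0.000214 for Tgfb3, 0.000288 for Fbxo32, 0.000317 for Mab21l1, 0.000409 for Clca3a1, 0.00086 for Slc38a4, 0.00164 for Glipr1, 0.00186 for Dcn and 0.0101 for Ctsk. For matrix genes it was 0.000328 for Sdc4, 0.00043 for Ltbp2, 0.00405 for Agrn, 0.0262 for Col12a1, 0.0315 for Fbln1 and 0.0399 for Gpc1. For signals and regulators it was 0.00311 for Cx3cl1, 0.00713 for Igfbp6, 3.29e-05 for Ifi202b, 0.0063 for Dlx2, 0.0277 for Tbx3 and 0.032 for Gata2, and it was 0.0076 for Peg3 and 0.0101 for Lpl.

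A few genes not called with empty vector also varied between vectors. The values were -0.34, -1.25 and -0.47 for Flt1 (adjusted p = 0.0381), -0.14, 0.58 and -0.34 for Prrx1 (adjusted p = 6.29e-05), -0.29, -1.55 and 0.72 for Postn (adjusted p = 0.00031), 0.30, -0.83 and 0.49 for Cdkn1a (adjusted p = 0.0171) and -0.45, -1.13 and -2.11 for Hoxb4 (adjusted p = 0.0276). Myc gave 0.04, -2.36 and 0.08 (adjusted p = 5.08e-09), and whether its probe set also reads the human c-myc of the vector was not tested.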

How the results depend on the processing

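Over the 15 alternative settings, no called gene among the 170 that were named or met the naming rule changed direction. Of the 142 called, 114 kept their call under every setting that tested them, and 28 lost it under at least 1. Of the 82 list counts, 43 stayed within 1.5 times throughout; counts of 1 or 2 members could change by a member when a single array was left out. Leaving out each array in turn gave 2640 to 3097 called genes and 628 to 768 at least 2-fold apart, against 3282 and 669. Fitted alone, the 6 empty-vector arrays gave 2869 called genes and 636 at least 2-fold apart. In that fit Sox9, Krt8, Dlx5, Pknox1, Kdr and Gas1 were among the genes that lost their calls.

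A pseudocount 4 times as high left 184 genes at least 2-fold higher in WA, against 278, because a higher pseudocount shrinks the differences of weak signals. The chromosome 16 median was -0.40 with a pseudocount of 1, -0.30 with one 4 times as high, -0.29 with no filter on mean signal and -0.43 with a stricter one, and the chromosome 7 median was 0.10 with no filter and 0.23 with the stricter one. Hoxa5, not called, turned to -0.76 (adjusted p = 0.0252) on the mean of its probe sets, which disagree. With the stricter filter 1 of the Hoxb and 2 of the Hoxc genes called higher in WB were still tested and called.

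With the replicate number as a block 3230 autosomal genes were called and 2179 varied between vectors. The same-numbered arrays correlated with r of 0.07, 0.10 and 0.19 in their deviations from the group means, and WA replicate 1 correlated best with WB replicate 2 (r = 0.09), while the other arrays correlated best with their own number, a hint from the data and not from the design.

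No detection calls were used, so a low signal does not show that a gene was silent, and differences between low signals have little support. With 1 line on each side, the differences describe these lines and not classes of fibroblasts.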
